A study of Mus musculus with 8 samples.

Results

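The transcripts of the mitochondrial genome were followed in E-cadHI and E-cadLO cells sorted from experimental brain metastases of breast cancer. All rows of the count table whose gene symbol starts with mt- were taken as members, which gave 32 of the 31894 genes with an identifier. Of these, 13 are protein-coding, 2 are rRNA genes and 17 are tRNA genes. The annotation lists 37 genes on this chromosome, 22 of them tRNA genes. The 5 tRNA genes mt-Tw, mt-Ty, mt-Tk, mt-Tr and mt-Tp had no row and were not analysed here.

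Tumor cells of the PyMT mammary cancer model with an E-cad-mCFP reporter, passaged serially through the brain, were grown in the brains of FVB mice. The labels give strain FVB and genotype wild type for every sample. The mice were adult when injected, and their age at collection is not given in the sources used here. Tumors were dissociated with enzymes and live cells were sorted by reporter fluorescence into a high (E-cadHI) and a low (E-cadLO) population. The gate the study shows kept cells with the nuclear tumor label H2B-Dendra2 and little red fluorescence before it split them by E-cad-mCFP. Red hosts of the study are FVB mice with an mTmG reporter, and its text does not say whether the sequenced mice carried it. No sample received a drug or carried a knockdown. Mice 57, 58, 67 and 70 each gave 1 bulk library of either population, so 4 libraries stood in each group. Both groups come from 1 passaged tumor model, and purity after the sort was checked by the study on the reporter-positive population only. Values are listed in the order of mice 57, 58, 67 and 70 throughout.

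Total counts ranged from 9102781 to 15769200 per library. A floor of 3 counts therefore corresponds to between 0.190 and 0.330 CPM (counts scaled to a library of 1e6). Intervals and floors describe counting error alone and take every read as a separate observation. Reads copied by PCR from the same molecule are not separate, so the intervals are too narrow where such copies occur. Both libraries of mouse 70 had the highest oligodendrocyte marker sum of their group, 8335 CPM in E-cadHI and 31348 CPM in E-cadLO. The E-cadLO library of mouse 58 held 14.4% of its counts in Gm42418, a nuclear gene that overlaps ribosomal RNA sequence, against 2.23% to 7.67% in the other 7 libraries. Cdh1, the gene of the sorted reporter protein, had 109, 132, 93.6 and 103 CPM in E-cadHI and 85.1, 171, 87.7 and 53.7 in E-cadLO, so that mouse 58 went against the order of the gates. The class shares and fitted values that moved most without these libraries are given without them as well.

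The mitochondrial genome is a small circle present in many copies per cell. Both of its strands are transcribed as long precursors, and tRNAs that lie between most of the other genes are cut out to release the mRNAs and rRNAs. The mRNAs encode core subunits of respiratory complexes I, III and IV and of ATP synthase, the rRNAs form the mitochondrial ribosome, and the tRNAs serve its translation. All other respiratory chain subunits, and the proteins that copy, transcribe and translate this genome, are encoded in the nucleus. Most mitochondrial mRNAs carry a short poly(A) tail, the rRNAs carry a shorter one and mature tRNAs carry none, which matters here because the libraries were made with an mRNA kit.

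The counts of the 13 protein-coding genes fell into separate ranges. The genes mt-Nd1, mt-Nd2, mt-Nd4, mt-Nd5, mt-Nd6, mt-Cytb and mt-Co1 each had at least 738 counts in every library. The other 6 genes, mt-Co2, mt-Co3, mt-Atp6, mt-Atp8, mt-Nd3 and mt-Nd4l, never exceeded 39 counts. These 6 lie next to each other on the genome, apart from tRNA genes. Cells transcribe them from the same precursor as their neighbours.

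The 65-base windows of each member, the length of the reads, were searched for in all other annotated transcripts. In 5 of the 6 genes at least 90% of the windows had an identical copy elsewhere. The share was 99.5% for mt-Co2, 99.5% for mt-Atp6, 99.9% for mt-Co3, 97.9% for mt-Nd3 and 98.7% for mt-Nd4l. In the 7 genes with high counts it was 61.8% for mt-Nd4, 44.3% for mt-Co1, 6.67% for mt-Nd2, 3.12% for mt-Nd5 and 0% for mt-Nd1, mt-Nd6 and mt-Cytb. The leading copies of these 5 genes, of a stretch of mt-Nd4 and of a stretch of mt-Co1 are 7 unprocessed pseudogenes. They lie on the minus strand of chromosome 1, between positions 24611535 and 24616197 (GRCm38). They are nuclear insertions of mitochondrial DNA in the same gene order. Copied windows of mt-Co1 and of mt-Co2 occurred in 2 other genes each. The leading copy of mt-Co1 aligned over 483 bases, so it does not hold all of the 656 copied windows of this gene.

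The gene mt-Atp8 was the exception, since it had low counts and none of its 140 windows occurred in another annotated transcript. The annotated copies of mt-Co2 and mt-Atp6 are 233 bases apart on chromosome 1, and the stretches they match are also 233 bases apart on the mitochondrial genome. That gap is where mt-Atp8 lies. It holds no annotated transcript on chromosome 1, and its genomic sequence was not analysed here.

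Pairs of matching stretches are shown because reads from them match either place or differ by a single base. The first pair is a 65-base stretch of mt-Co2 (MT:7321-7385, plus strand, coding) and the same stretch of its pseudogene Gm28661 (chr1:24615193-24615257, minus strand), which are identical.
mt-Co2: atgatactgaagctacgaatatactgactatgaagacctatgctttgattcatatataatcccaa
Gm28661: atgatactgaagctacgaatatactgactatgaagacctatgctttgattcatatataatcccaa
The second pair is the start of mt-Nd3 (MT:9459-9523, plus strand, coding) and of its pseudogene Gm28438 (chr1:24613055-24613119, minus strand). They differ by T3C, counted from 1 at the first base of mt-Nd3, which is the capital letter in both. Over the 345 bases that Gm28438 covers, 344 were identical.
mt-Nd3: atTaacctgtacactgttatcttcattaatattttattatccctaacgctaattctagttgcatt
Gm28438: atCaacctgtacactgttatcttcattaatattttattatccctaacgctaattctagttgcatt

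In this last pair counts were assigned to the pseudogene and none to the member. Both sequences shown are those of the GRCm38 reference. The base that the sequenced cells carry at this position of mt-Nd3 was not analysed here. Which of the 2 places the reads came from is therefore not known from these counts. The gene mt-Nd3, a small subunit of complex I, had 0 counts in all 8 libraries, which allows at most 0.330 CPM assigned to it. Its copy Gm28438 had 42, 128, 47 and 168 counts in E-cadHI and 50, 82, 115 and 329 in E-cadLO. On the log2 scale its share of the library differed between E-cadLO and E-cadHI of the same mouse by 0.65, -0.13, 1.20 and 0.56. All 7 pseudogenes together had 67 to 973 counts per library. How reads that match 2 places were counted is not given in the sources used here, and its part in the low counts was not tested.

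**Figure D1:**
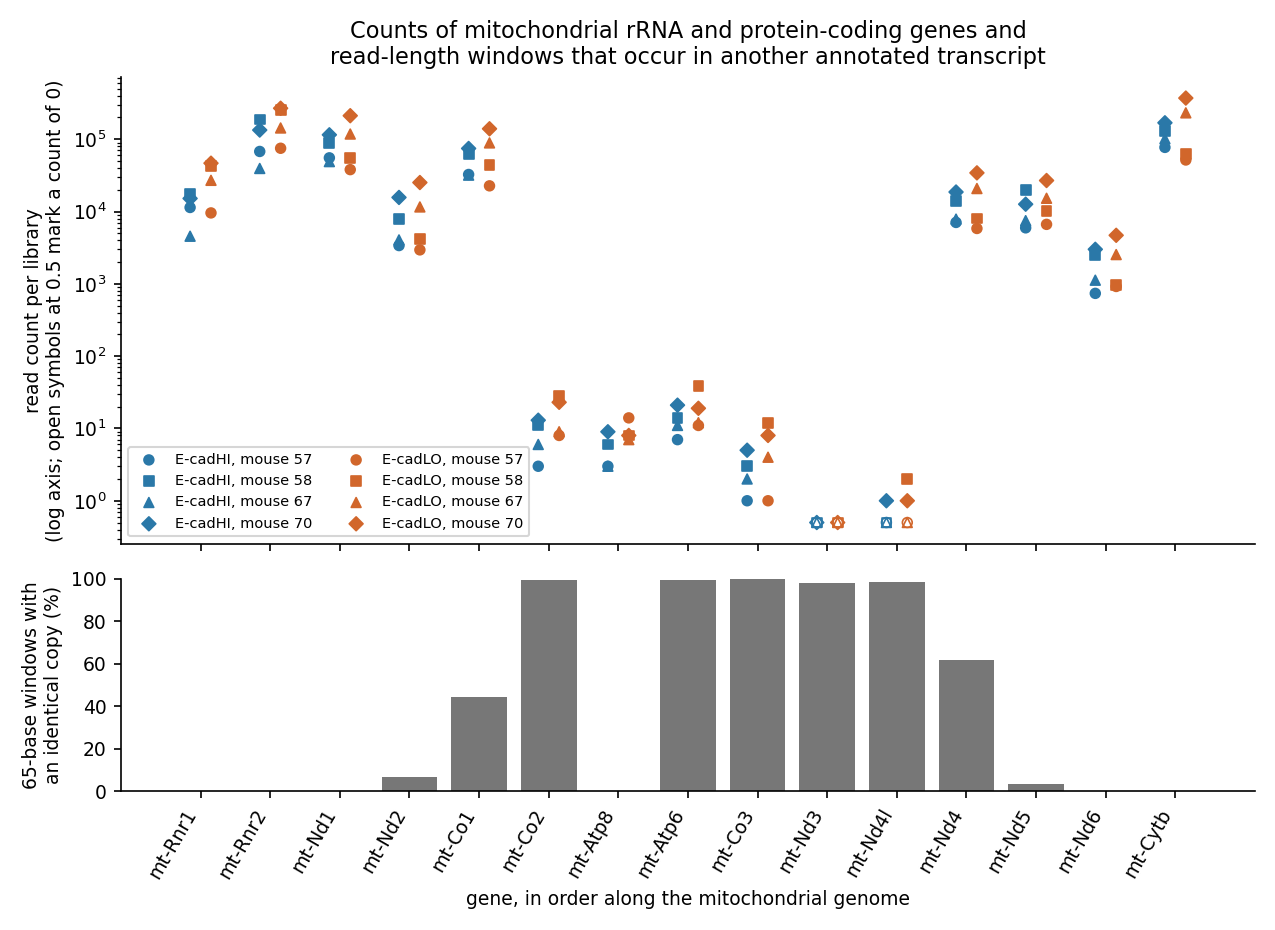
Read counts (log axis) of the 2 rRNA and 13 protein-coding genes in the 8 libraries, above the percentage of 65-base windows of each gene with an identical copy in another annotated transcript; open symbols mark a count of 0. The 6 neighbouring genes from mt-Co2 to mt-Nd4l stayed at or below 39 counts, and 5 of them have 97.9% to 99.9% of windows copied.

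Mitochondrial genes together took 1.75%, 4.07%, 1.84% and 4.70% of all counts in the E-cadHI libraries. In the E-cadLO libraries they took 1.88%, 5.32%, 4.61% and 7.16%. The share was thus higher in E-cadLO in 4 of 4 mice, but the groups overlapped, since mice differed more from each other than the populations did in mice 57 and 58. The mean log2 ratio was 0.61 ± 0.52 (SD, n = 4), and 0.37 without mouse 67. Counting error was small beside these differences, with Wilson 95% intervals of at most 0.421% of the value to either side. In bulk samples a change in the mix of cells and a change in the RNA per cell cannot be told apart.

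The 3 classes of genes did not move alike. Protein-coding genes held 1.22%, 2.50%, 1.51% and 3.44% of the counts in E-cadHI and 1.14%, 2.04%, 3.41% and 5.16% in E-cadLO. Their log2 ratio of E-cadLO to E-cadHI within a mouse was -0.10, -0.30, 1.18 and 0.58, with a mean of 0.34 ± 0.67 (SD, n = 4). The direction therefore differed between mice, and the mean dropped to 0.06 without mouse 67. It was 0.55 without mouse 58 and 0.26 without mouse 70.

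The rRNA genes held 0.530%, 1.57%, 0.327% and 1.26% of the counts in E-cadHI. In E-cadLO they held 0.747%, 3.28%, 1.19% and 2.0%. The log2 ratio was above 0 in all 4 mice, at 0.49, 1.06, 1.86 and 0.67 (mean 1.02 ± 0.61, SD, n = 4). The mean was 0.74 without mouse 67, 1.01 without mouse 58 and 1.14 without mouse 70, and thus kept its direction.

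The tRNA genes were rare, with 0.00119%, 0.00226%, 0.00138% and 0.00416% of the counts in E-cadHI. Their share in E-cadLO was 0.0020%, 0.00299%, 0.00383% and 0.00926%. The log2 ratio was again above 0 in each mouse, at 0.74, 0.40, 1.47 and 1.16 (mean 0.94 ± 0.47, SD, n = 4). Without mouse 58 the mean was 1.12, without mouse 70 it was 0.87 and without mouse 67 it was 0.77. These sums rest on few reads, and their intervals reached 15.8% of the value to either side.

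Because the classes moved unequally, the makeup of the mitochondrial counts differed as well. The rRNA genes formed 30.3%, 38.5%, 17.8% and 26.7% of them in E-cadHI and 39.6%, 61.7%, 25.8% and 27.9% in E-cadLO. This part was higher in E-cadLO in each of the 4 mice, by little in mouse 70. It was largest in the E-cadLO library of mouse 58, the one with most Gm42418. Leaving Gm42418 out of the library totals changed no direction of a class in any mouse, and gave mean log2 ratios of 0.37, 1.05 and 0.97 for protein-coding, rRNA and tRNA genes. No test was run on these sums.

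**Figure D2:**
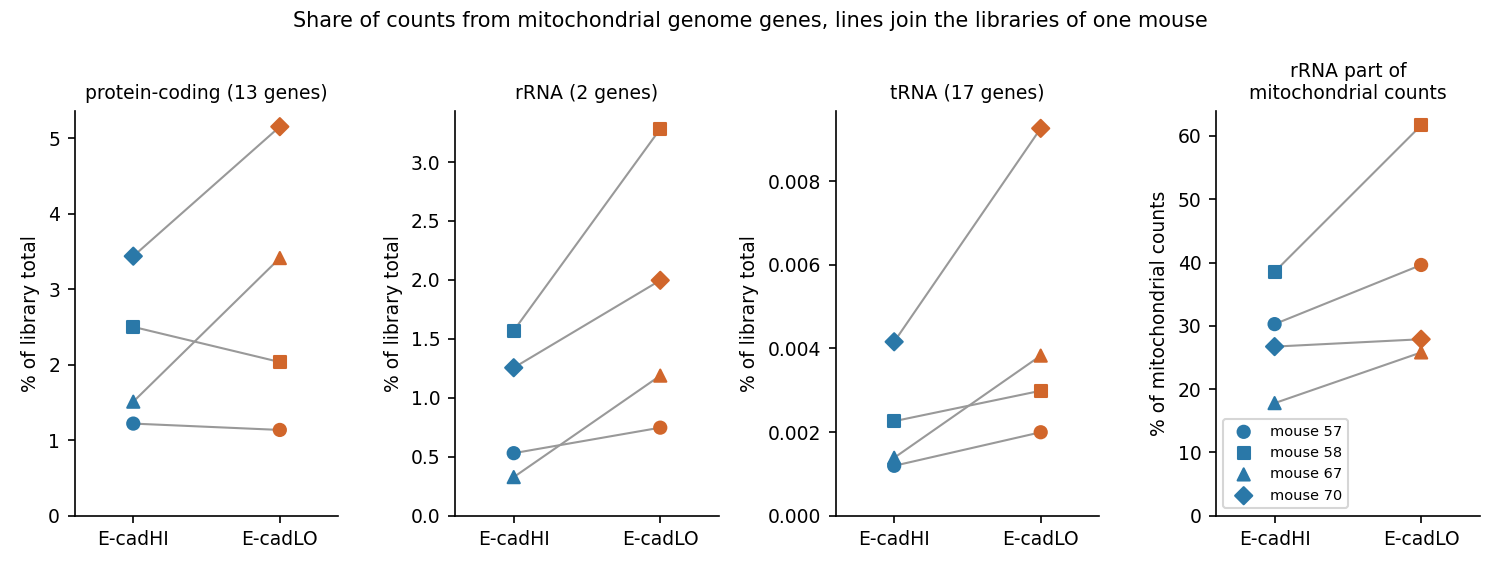
Share of the library total (%) taken by protein-coding, rRNA and tRNA genes, and the rRNA part (%) of all mitochondrial counts, with lines that join the E-cadHI and E-cadLO libraries of a mouse. The rRNA and tRNA lines rise in all 4 mice, while the protein-coding lines fall in mice 57 and 58 and rise in mice 67 and 70.

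Between the rRNA genes, the small-subunit rRNA mt-Rnr1 showed the larger difference. It held 0.0763%, 0.133%, 0.0339% and 0.128% of the counts in E-cadHI and 0.0845%, 0.463%, 0.189% and 0.296% in E-cadLO. Only mouse 57 had nearly equal shares, with log2 ratios of 0.15, 1.80, 2.48 and 1.21 in the 4 mice. The large-subunit rRNA mt-Rnr2 held 0.454%, 1.44%, 0.293% and 1.13% in E-cadHI and 0.662%, 2.82%, 0.999% and 1.70% in E-cadLO. Its ratios were 0.55, 0.97, 1.77 and 0.59.

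Per count of mt-Rnr1 there were 5.95, 10.8, 8.65 and 8.83 counts of mt-Rnr2 in E-cadHI, and 7.84, 6.08, 5.30 and 5.75 in E-cadLO. The number was lower in E-cadLO in mice 58, 67 and 70 and higher in mouse 57. In the cell both rRNAs are cut from the same precursor and stand in equal numbers in the ribosome. Per kb of gene, mt-Rnr2 was above mt-Rnr1 in 8 of 8 libraries.

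Complex I takes electrons from NADH into the chain, and 7 of its subunits are mitochondrially encoded. The most abundant was mt-Nd1, with a share of 0.370%, 0.681%, 0.365% and 0.969% in E-cadHI and 0.335%, 0.600%, 0.824% and 1.34% in E-cadLO. Next to it on the genome, mt-Nd2 held 0.0227%, 0.0611%, 0.0301% and 0.132% in E-cadHI and 0.0260%, 0.0458%, 0.0808% and 0.160% in E-cadLO. Although both come from the same precursor strand, mt-Nd1 was 7.97 to 17.7 times as high as mt-Nd2 in CPM per kb, depending on the library. Neither gene separated the groups.

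The proton-pumping subunits encoded by mt-Nd4 and mt-Nd5 had lower shares. For mt-Nd4 they were 0.0474%, 0.107%, 0.0584% and 0.157% in E-cadHI and 0.0515%, 0.0882%, 0.145% and 0.217% in E-cadLO. For mt-Nd5 they were 0.0399%, 0.153%, 0.0556% and 0.106% in E-cadHI and 0.0587%, 0.112%, 0.107% and 0.170% in E-cadLO. Both were higher in E-cadLO in 3 of 4 mice, mouse 58 being the exception.

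The only protein-coding gene on the minus strand, mt-Nd6, had the fewest counts of the 7. It held 0.00495%, 0.0189%, 0.00836% and 0.0253% of the counts in E-cadHI and 0.00812%, 0.0105%, 0.0177% and 0.0297% in E-cadLO. Its ratio also fell below 0 only in mouse 58. It shares 14 bases with mt-Nd5, and whether counting used strand is not given in the sources used here, so reads from the opposite strand cannot be told apart from its own. The complex I genes mt-Nd3 (0 counts) and mt-Nd4l (0 to 2 counts) were too low for any comparison.

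Complex III holds a single mitochondrially encoded subunit, cytochrome b. Its gene mt-Cytb had the largest share of all protein-coding members, with 0.517%, 0.995%, 0.756% and 1.42% in E-cadHI and 0.456%, 0.690%, 1.62% and 2.35% in E-cadLO. Mice 57 and 58 had the lower value in E-cadLO and mice 67 and 70 the higher one. It formed 33.9% to 50.0% of the protein-coding counts in a library.

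The catalytic core of complex IV is encoded by mt-Co1. It held 0.218%, 0.486%, 0.237% and 0.627% of the counts in E-cadHI and 0.200%, 0.488%, 0.621% and 0.885% in E-cadLO. In mice 57 and 58 these shares were nearly equal, with log2 ratios of -0.12 and 0.01, and in mice 67 and 70 they were 1.39 and 0.50. Its partners mt-Co2 (3 to 28 counts) and mt-Co3 (1 to 12 counts) stayed low, as did the ATP synthase genes mt-Atp6 (7 to 39 counts) and mt-Atp8 (3 to 14 counts), which overlap by 43 bases.

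In CPM per kb of gene, the order of mean levels in E-cadHI was mt-Cytb (8060 ± 3371), mt-Nd1 (6233 ± 3022), mt-Rnr2 (5233 ± 3436) and mt-Co1 (2537 ± 1286), each ± SD with n = 4. The SDs describe the spread between mice, and the ranges of mean ± SD overlapped between neighbours. Within a library mt-Cytb was above mt-Nd1 in 7 of 8 libraries and mt-Nd1 above mt-Co1 in 8 of 8. The gene mt-Rnr2 was above mt-Co1 in 8 of 8 libraries. Its place beside the other 2 varied, since mt-Cytb and mt-Nd1 were each above it in 5 of 8 libraries. All counts of a gene were also set per kb of its windows without a copy. On this scale mt-Co1 reached 4752 ± 2409 CPM in E-cadHI, nearer to mt-Nd1 (6679 ± 3239). For mt-Nd4 the mean was 1840 ± 998 CPM in E-cadHI, against 670 ± 364 per kb of gene. This scale holds only if reads with several matches were left out of the counts, which is not given in the sources used here. In E-cadLO the means per kb of gene were 11179 ± 7636 for mt-Cytb, 9767 ± 6021 for mt-Rnr2 and 8102 ± 4461 for mt-Nd1.

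Of the 17 tRNA genes, several were at 0 in some libraries, and mt-Th had 1 count in all 8 together. Together, mt-Tq and mt-Tc, the tRNAs for glutamine and cysteine, held 58.2% to 79.2% of the tRNA counts. They are 59 to 75 bases long, so a 65-base read spans most or all of one. The most counted, mt-Tq (MT:3772-3842, minus strand), is shown whole because its length is close to that of a read.
mt-Tq: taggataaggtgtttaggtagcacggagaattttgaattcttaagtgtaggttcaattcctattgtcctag
The 6 minus-strand tRNA genes among the members, mt-Tq included, held 70.1% to 89.9% of tRNA counts. The limit on strand given for mt-Nd6 holds for them too.

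For mt-Tq the shares were 0.000684%, 0.000892%, 0.000700% and 0.00198% in E-cadHI and 0.00101%, 0.00102%, 0.00181% and 0.00453% in E-cadLO. For mt-Tc they were 0.000235%, 0.000423%, 0.000365% and 0.000766% in E-cadHI and 0.000574%, 0.000813%, 0.000901% and 0.00190% in E-cadLO. Both were higher in E-cadLO in each mouse, although the groups overlapped. The ratio of mt-Tc was the steadiest of the members with counts in every library, at 1.29, 0.94, 1.31 and 1.31 on the log2 scale. The methionine tRNA mt-Tm and the alanine tRNA mt-Ta were also higher in each mouse, by 1.35 ± 0.54 and 0.53 ± 0.53 on the log2 scale (mean and SD, n = 4).

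**Figure D3:**
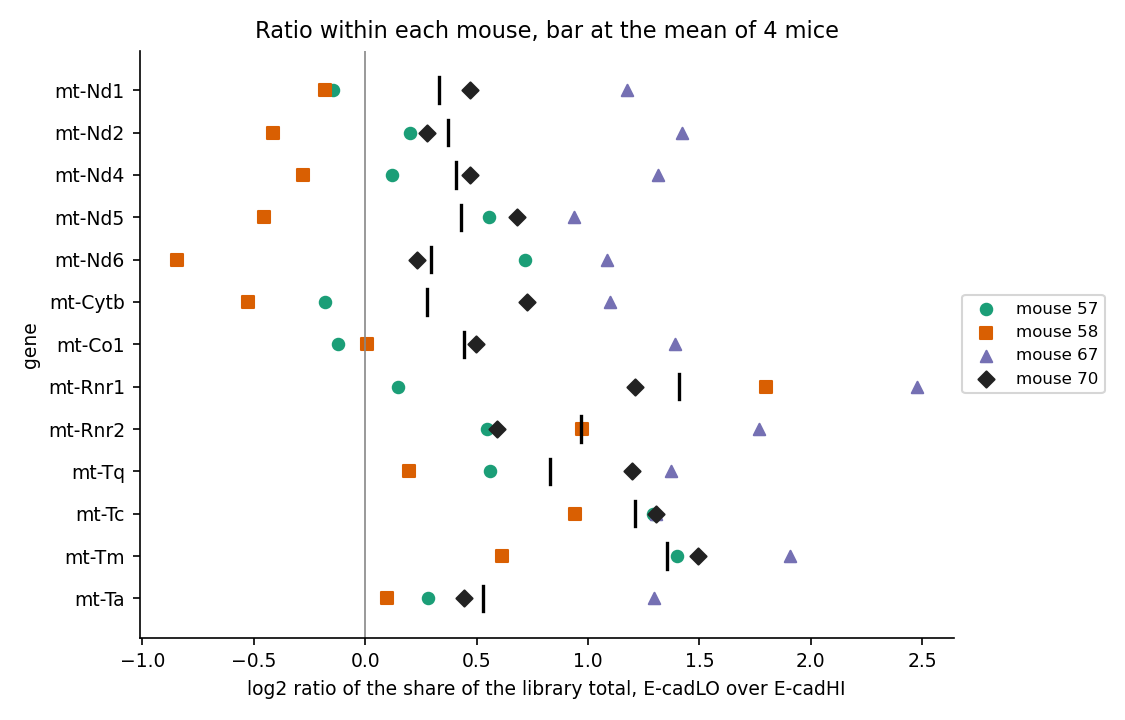
Log2 ratio of the share of the library total, E-cadLO over E-cadHI, within each of the 4 mice for 13 genes, with a bar at the mean. All 4 points of mt-Rnr1, mt-Rnr2 and the 4 tRNA genes lie above 0, whereas each of the 7 protein-coding genes has its lowest point, mouse 57 or 58, below 0.

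Whether these differences exceed the spread between libraries was asked with edgeR's quasi-likelihood test over all 13598 genes that passed its filter on low counts. Of the 32 members 18 passed this filter, namely 9 protein-coding, 2 rRNA and 7 tRNA genes, and 14 were too low. None of the 18 was called in either direction after Benjamini-Hochberg adjustment, and percent called over all genes was 0% higher and 0% lower in E-cadLO. At an unadjusted p under 0.05, 2 of the 18 were higher, where 8.16% of all genes were higher and 5.81% lower. These were mt-Rnr1, with a log2 fold change of 1.50 (SE 0.60, adjusted p = 0.326), and mt-Tc, with 1.24 (SE 0.54, adjusted p = 0.351).

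The remaining members had smaller fold changes or larger errors. The fitted log2 difference of mt-Rnr2 was 0.92 (SE 0.62, adjusted p = 0.493), and 0.43 without the E-cadLO library of mouse 58. The 9 protein-coding genes lay between 0.21 for mt-Nd6 and 1.18 for the scarce mt-Co2. Well counted genes had 0.39 for mt-Nd1, 0.48 for mt-Cytb and 0.49 for mt-Co1. Among the tRNAs, mt-Tm had 1.36, mt-Tf 1.0, mt-Tq 0.99, mt-Tt 0.69, mt-Ta 0.52 and mt-Tl1 -0.01. Without the E-cadLO library of mouse 70, mt-Nd1 had -0.08, mt-Nd2 -0.33, mt-Nd4 -0.02, mt-Nd6 -0.31 and mt-Cytb -0.07, so that the direction of these 5 genes turned with this library. For mt-Nd6 it also turned without mouse 67 or without the E-cadHI library of mouse 57 or 67. Leaving out the E-cadLO library of mouse 70 also left 0.11 for mt-Co1, 0.01 for mt-Nd5, 0.44 for mt-Tm, 0.32 for mt-Tf, 0.19 for mt-Tq, 0.05 for mt-Ta, 0.46 for mt-Tt and 0.71 for mt-Tc, all lower than with all libraries. Without the E-cadLO library of mouse 58, mt-Co2 had 0.52 and mt-Atp6 -0.08.

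As a list, 17 of the 18 tested members had a log2 fold change above 0, where 55.1% of all genes did. Their median was 0.60, against 0.06 over all genes. In share of the library total, 8 of the 18 were higher in E-cadLO in 4 of 4 mice, against 15.7% of all genes. These 8 were both rRNA genes, 5 of the 7 tRNA genes and, among 9 protein-coding genes, only mt-Co2 with its 3 to 28 counts. A member that passed the filter through E-cadLO counts alone would enter this list as a higher one, and the members share their precursors, so these counts describe the list and are not independent.

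The 2 populations of a mouse come from the same animal, and a fit that takes the mouse as replicate block left the adjusted calls of members at 0, where 0.728% of all genes were called higher and 0% lower. With this block, 5 members had an unadjusted p under 0.05 (mt-Rnr1, mt-Rnr2, mt-Tq, mt-Tm and mt-Tc), against 12.3% of all genes higher and 7.33% lower. The smallest adjusted p was 0.143, for mt-Tc. DESeq2 without the block called 0 members, with 2.22% of all genes called higher and 0.426% lower. With the mouse as a block, DESeq2 called 3 members higher, mt-Rnr1 (log2 fold change 1.40, adjusted p = 0.00243), mt-Rnr2 (0.94, adjusted p = 0.00448) and mt-Tc (1.19, adjusted p = 0.00909), where it called 7.57% of all genes higher and 1.63% lower.

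Nuclear genes whose products work with these transcripts were mostly lower in E-cadLO, short of the test's threshold. A list of 75 nuclear subunits of complexes I to IV and ATP synthase was summed, and it held 1.92% to 2.39% of the counts in E-cadHI and 1.44% to 2.27% in E-cadLO. Within the mice its log2 ratio was -0.68, -0.16, -0.34 and -0.07, below 0 in 4 of 4. In the edgeR fit 72 of the 75 had a log2 fold change below 0, where 44.9% of all genes did, with a median of -0.30. In share of the library total, 42 of them (56.0%) were lower in 4 of 4 mice, against 14.7% of all genes. None was called after adjustment, and 4 had an unadjusted p under 0.05, all lower, a count near the 5.81% lower over all genes. In edgeR with the mouse as replicate block, 12 of the 75 had an unadjusted p under 0.05, all lower. In that fit 7.33% of all genes were lower at this threshold, and 0 of the 75 were called after adjustment. The median was -0.29 for complex I, -0.36 for complex II, -0.38 for complex III, -0.18 for complex IV and -0.38 for ATP synthase.

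The lowest fold changes in this list belonged to Atp5g3 (-0.69) and Atp5g1 (-0.55), which encode the same ring subunit of ATP synthase, and to Ndufa4 (-0.66). Cox8a (0.21), Cox6c (0.14) and Uqcrq (0.01), small subunits of complexes IV and III, had the highest. All subunits except those of complex II assemble with products of the mitochondrial mRNAs described above. No test compared the mitochondrial with the nuclear genes.

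A further 72 nuclear genes serve the maintenance, transcription, RNA processing and translation of the mitochondrial genome. Of the 70 tested, 28 had a log2 fold change above 0 and 42 below 0, with a median of -0.11 and 0 called. Genes at the upper end were Polg, the catalytic subunit of the mitochondrial DNA polymerase (0.72), Trmt10c, a subunit of the mitochondrial RNase P that cuts tRNAs at their 5′ end (0.65), and Mrm1, which methylates the large rRNA (0.48). At the lower end were Hsd17b10, another subunit of the same RNase P (-0.69), Nsun3, which modifies the methionine tRNA (-0.60), and Mterf1a, a termination factor (-0.58). Of these 6 genes, Hsd17b10 and Trmt10c passed an unadjusted 0.05 in the edgeR fit, in opposite directions, and neither passed after adjustment (adjusted p = 0.325 and 0.353).

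Markers of other cell types moved with the populations in the same mice, although the sort gated on a tumor label. Summed microglia and macrophage markers (13 genes) ranged from 37.0 to 265 CPM in E-cadHI and from 224 to 922 CPM in E-cadLO, oligodendrocyte markers (10 genes) from 584 to 8335 and from 1596 to 31348, and neuron markers (11 genes) from 3.95 to 95.7 and from 30.6 to 362. Each of these sums was higher in E-cadLO in 4 of 4 mice. In the edgeR fit 8 oligodendrocyte genes had a log2 fold change above 0 and 2 below 0, and 1 was lower in 4 of 4 mice. All tested microglia and neuron genes were above 0. The astrocyte sum (10 genes) was higher in 3 of 4 mice, and ranged from 1102 to 3475 CPM in E-cadHI and from 860 to 9193 CPM in E-cadLO. No gene of these lists was at 0 in all libraries of a group.

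Endothelial markers (9 genes) ranged from 41.0 to 78.1 CPM in E-cadHI and from 74.2 to 103 CPM in E-cadLO. Fibroblast and mural markers (9 genes) ranged from 8.98 to 61.6 CPM and from 25.2 to 1429 CPM, and erythroid markers (5 genes) from 24.5 to 370 CPM and from 200 to 683 CPM. All 3 of these sums were higher in E-cadLO in 4 of 4 mice. The neutrophil sum (7 genes, of which Ngp was at 0 in every E-cadHI library) was at most 24.3 CPM and lower in E-cadLO in 4 of 4, although the mean of 5 of its 7 genes was higher in E-cadLO. Epithelial tumor markers (12 genes) ranged from 17062 to 25907 CPM in E-cadHI and from 9065 to 24145 CPM in E-cadLO, lower in 3 of 4 mice. In the edgeR fit 4 of these genes were above 0 and 8 below 0, and 2 were higher in E-cadLO in 4 of 4 mice. No gene of the epithelial list was at 0 in all libraries of a group.

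The largest rise of the mitochondrial rRNA and protein-coding shares was in mouse 67, whereas that of the summed fibroblast markers was in mouse 57 and that of the astrocyte markers in mouse 70. The oligodendrocyte sum rose most in mouse 67 as well. In mouse 57, where microglia, neuron and fibroblast markers differed most, mitochondrial protein-coding genes were slightly lower in E-cadLO. Within each group, libraries with a larger protein-coding share had larger neuron and oligodendrocyte sums. Neuron sums were 3.95, 60.2, 20.9 and 95.7 CPM in E-cadHI and 30.6, 135, 139 and 362 CPM in E-cadLO. Oligodendrocyte sums were 584, 1720, 1019 and 8335 CPM in E-cadHI and 1596, 3662, 4518 and 31348 CPM in E-cadLO. This order was picked out after the values were seen and rests on 4 libraries per group. Astrocyte and erythroid sums and the summed nuclear respiratory chain genes kept it in E-cadLO only. Fibroblast and mural sums kept it in E-cadHI only. Microglia, endothelial, neutrophil and epithelial sums did not keep it in either group. Nuclear noncoding RNAs (5 genes, Gm42418 and Malat1 among them) summed to 2.36% to 7.93% of the counts in E-cadHI and 2.57% to 14.7% in E-cadLO. The part of the cell mix and of these nuclear RNAs in the mitochondrial differences was not tested.

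**Figure D4:**
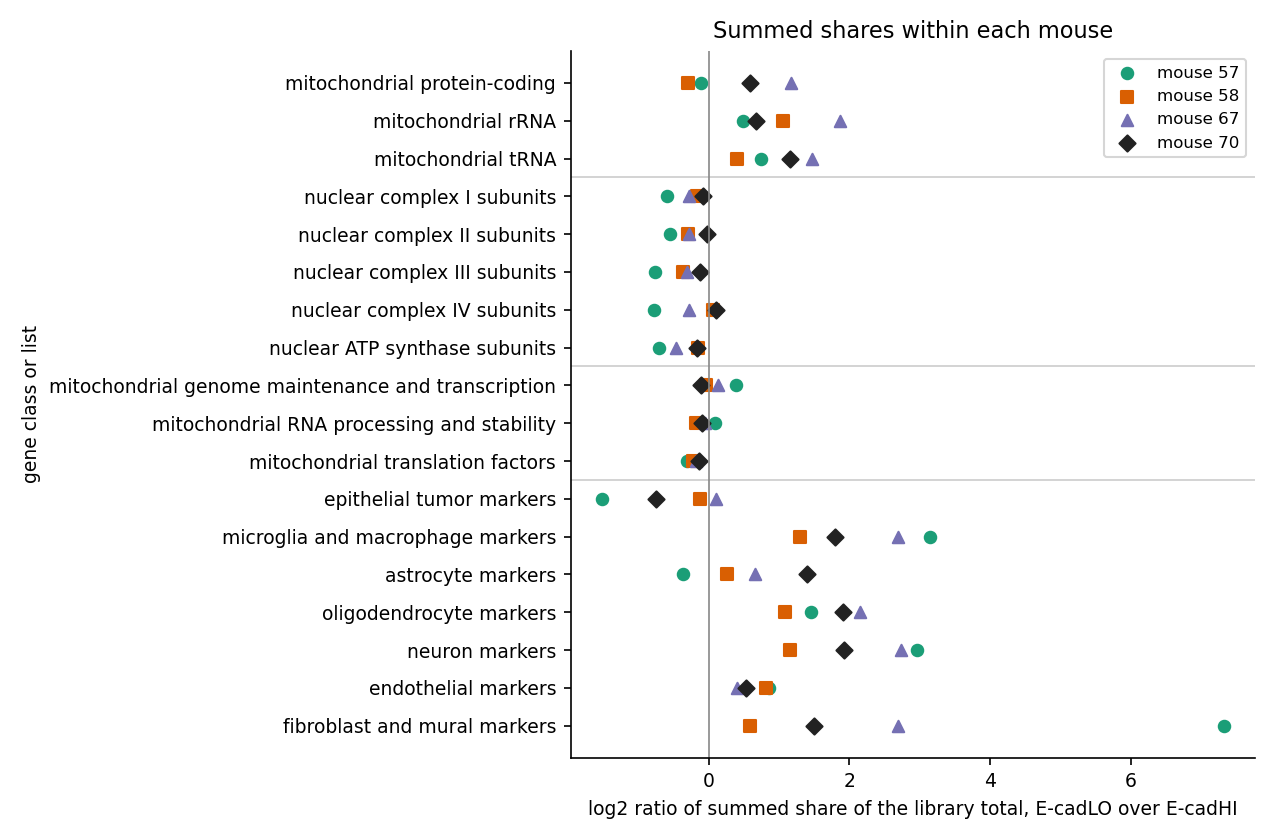
Log2 ratio of summed shares of the library total, E-cadLO over E-cadHI, in each of the 4 mice for the 3 mitochondrial gene classes, 5 nuclear respiratory chain lists, 3 nuclear lists for mitochondrial gene expression and 7 marker lists. Mitochondrial rRNA and tRNA lie above 0 in all mice, 4 of the 5 respiratory chain lists below 0 in all mice, and microglia, oligodendrocyte, neuron, endothelial and fibroblast markers above 0 in all mice.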

How the data were processed

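The authors sequenced sorted cells as 65-base single reads from mRNA libraries, aligned them to GRCm38 with HISAT2 (version 2.1.0 in the submitters' processing notes) and deposited raw counts per gene, with no normalization. The study's methods name Icount as the counter and the processing notes name HTSeq, and neither gives the strand setting or the treatment of reads with several matches. The 365 entries without a gene identifier held at most 0.0954% of a library's counts and were left out of totals and tests. No pair of libraries agreed within sampling noise.

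Shares are counts over the library total. Ratios within a mouse use the library pair of that mouse. The test was edgeR 4.0.16 (R 4.3.3) with TMM factors, filterByExpr by population and the quasi-likelihood F-test over all 8 libraries, with no block, since the study's methods name none, and Benjamini-Hochberg adjustment over all genes tested at a threshold of 0.05. DESeq2 1.42.0, with its own filter on low means, was an alternative. The libraries are paired by the mouse number in the labels. Same-mouse deviations from the group means correlated at 0.248 to 0.692, and those of different mice at most at 0.144. Replicates are mice of 1 passaged tumor model. Windows and sequences come from the GENCODE M21 transcripts (GRCm38), matched exactly with Python 3.11.15. Other alternatives were other scalings, filters and denominators, and each library or mouse left out. The code was tested on simulated data.

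Members, lists and tests were chosen with earlier results of these data known. Named genes were all protein-coding and rRNA members, the tRNA members that passed the filter, and the 3 highest and 3 lowest fold changes of the pooled respiratory chain lists and of the pooled gene expression lists. mt-Th, named for its count, was chosen after its values were seen.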

Additional observations from a re-analysis of the deposited data

Results flagged for a closer look

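In groups of 4 values, the gap between the highest or lowest value and the nearest of the others was divided by the range of the 4 (Dixon's test at the 95% level). Of 132 groups 14 stood out. Chance would give about 1 in 20, or 6.6, for independent groups of normal values. These groups are not independent, since sums stand beside their own members. Among the members, mt-Tq took 0.00198% of the counts in the E-cadHI library of mouse 70, far above the other 3. The share of mt-Atp6 was 0.000428% in the E-cadLO library of mouse 58, from 39 reads. In that library mt-Co1 also formed 24.0% of the protein-coding counts, more than in the other E-cadLO libraries. The part of mt-Nd2 among protein-coding counts was 3.10% in the E-cadLO library of mouse 70. The log2 ratio of mt-Tc was 0.94 in mouse 58, below the other 3 mice.

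The remaining values are sums of marker lists, and most belong to mouse 70. Its E-cadHI library stood out with 3475 CPM of astrocyte, 8335 CPM of oligodendrocyte, 61.6 CPM of fibroblast and mural and 370 CPM of erythroid markers. Its E-cadLO library did so with 9193 CPM of astrocyte, 31348 CPM of oligodendrocyte and 683 CPM of erythroid markers. Fibroblast and mural markers reached 1429 CPM in the E-cadLO library of mouse 57. Nuclear noncoding and ribosomal RNAs reached 147206 CPM in the E-cadLO library of mouse 58. Their part in the mitochondrial shares was not tested.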

How the results depend on the processing

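Across 21 alternative fits, 350 of 370 log2 fold changes of members kept their direction and 20 reversed. No fit without a block called a member. The count of members called higher was 3 with DESeq2 and the mouse as replicate block. The same fit, applied to the nuclear lists after seeing the data, called 1 of 75 respiratory chain genes lower, where it called 1.63% of all genes lower. With edgeR and the replicate block both counts were 0, as in the fit without it. The cause was not tested. The sign of mt-Tl1 (0 to 18 counts per library) was not stable, since its -0.01 became 0.0052 with DESeq2, 0.40 with DESeq2 and the block, 0.28 with edgeR and the block and 0.0040 with DESeq2's size factors within edgeR. With a library or mouse left out it ranged from -0.45 to 0.50. Likewise mt-Nd1 ranged from -0.0815 to 0.73, mt-Nd2 from -0.33 to 1.07, mt-Nd4 from -0.0186 to 0.84, mt-Nd6 from -0.31 to 0.65, mt-Cytb from -0.0662 to 0.78 and mt-Atp6 from -0.0824 to 1.35, the last below 0 only without mouse 58 or its E-cadLO library. Both rRNA genes stayed above 0, mt-Rnr1 from 1.03 to 1.79 and mt-Rnr2 from 0.43 to 1.31, each lowest without the E-cadLO library of mouse 58. No scaling moved the median of all genes by more than 0.06. Counts were too few for a comparison in 4 protein-coding and 10 tRNA genes.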
